A study of Mus musculus with 10 samples.

Results

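The genes described here are 31 mouse genes of sterol metabolism, covering cholesterol synthesis, its regulation, and the uptake, transfer, storage and export of sterols. They form a fixed list of names, and every non-control probe that carries one of these names in the array files was taken. All 31 had a probe among the 34607 genes on the array, 45 probes in all, and 30 of them were among the 13677 genes that could be tested. No scan had the remaining gene, Nr1h3, well above background.

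The study asked which transcripts differ when miR-142-3p is raised in C2C12, a line of mouse muscle precursors that divide as single cells and can fuse into myotubes. In the first group the cells received a mirVana mimic, a synthetic double-stranded RNA that supplies the microRNA, and in the second a scrambled RNA of the same kind, each at 150 nM with Lipofectamine 2000. Both groups were the same line, seeded at equal numbers in high-glucose medium with 10% serum, and the labels give 72 h between transfection and RNA and an efficiency of about 60%, so a share of the cells in each group may hold little of either RNA. One line at one dose and one time was studied, and no untransfected cells were analysed here. In the labels each of the 4 scramble titles ends with the remark re-analysis, while the mimic titles have no such remark. What it refers to, and whether these scramble arrays also served another comparison, is not stated, and this bears on every difference given here.

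Cells make cholesterol from acetyl-CoA through mevalonate and the isoprenoid diphosphates to squalene, which is closed to lanosterol and then trimmed and reduced by a series of enzymes of the endoplasmic reticulum. When membrane sterol is low, SCAP carries the transcription factor SREBP2 to the Golgi, where proteases release its active part, which turns on most genes of the pathway together, while INSIG proteins hold SCAP back when sterol is high. Oxysterols and some synthesis intermediates activate the nuclear receptors LXR alpha and LXR beta, which turn on the exporter ABCA1 and the ubiquitin ligase MYLIP.

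The mimic is labelled as miR-142-3p, and the mature mouse sequence of that name, mmu-miR-142a-3p, is shown because it is what the first group was given. RefSeq places it on GRCm38.p6 at chr11:87756903-87756925, plus strand. Bases 2 to 8, the seed that pairs with target messages, are in capitals.
mmu-miR-142a-3p: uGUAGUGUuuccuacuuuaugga

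The labels list 10 samples, 6 mimic and 4 scramble, but the file headers show only 5 arrays, all of 1 slide, each read on 2 scan days. The mimic arrays are replicates 1 with 4, 2 with 5 and 3 with 6, and the scramble arrays are 1 with 3 and 2 with 4. The scans of an array were averaged, which left 3 mimic arrays and 2 scramble arrays, numbered here by their first replicate. Values are normalised log2 signals, the log2 of the background-corrected Cy3 intensity minus the scan's 75th percentile, so that 0 marks the 75th percentile and 1 unit is a 2-fold step. Scans had 25.4% to 34.6% of their spots well above background, and the dimmest probe well above background lay between −1.86 and −0.72 on this scale, depending on the scan. No source says which culture each array came from, so the p-values speak of how far these 5 arrays scatter, and that scatter may be technical. Of the myoblast markers Myod1 and Cdh15 were well above background in both groups and Pax7 on no scan. Markers of muscle differed widely with the mimic. The summed linear level of the 3 measured myoblast markers was 22.8 to 25.5 in mimic and 86.1 to 119 in scramble arrays, all 3 lower by limma, and that of 7 myotube markers 14.2 to 17.9 against 421 to 433, with 6 lower. Of 7 macrophage markers Cd68 was higher, by a log2 difference of 4.83. Csf1r and Itgam were well above background on all scans and overlapped between the groups, with differences of 0.17 and 0.14. Ptprc, Adgre1, Lyz2 and Tyrobp were well above background on no scan. Adipoq, Fabp4, Plin1, Cidec and Lep were likewise not well above background, while the sixth adipocyte marker Pparg was higher by 1.24. Fibroblast markers summed to 289 to 316 in mimic and 217 to 275 in scramble arrays, with Lum higher among 5, and none of 4 hepatocyte markers could be measured. The part that these cell-state differences have in the sterol values was not tested.

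No sterol gene passed an adjusted p of 0.05 in the mimic against the scramble arrays, by limma across all genes with Benjamini-Hochberg adjustment. Over all 13677 genes 9.35% passed, 5.53% higher and 3.82% lower. At an unadjusted p below 0.05 stood 11 of the 30 sterol genes (36.7%), beside 25.3% of all genes. Fitted log2 differences were above 0 for 15 sterol genes and below 0 for 15 (50%, beside 41.7% of all genes), with a median of −0.05, beside 0.09 over all genes. The size of the differences was like that of other genes, with a median absolute log2 difference of 0.34 in the sterol genes and 0.32 overall. The split by sign moved with the scaling, to 12 above and 18 below 0 when only probes well above background throughout set the percentile, and to 16 and 14 with scaling to the median. In these bulk samples, fewer cells of a type and less RNA per cell cannot be told apart.

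The arrays of the 2 groups did not overlap for 15 of the 29 sterol genes with a value on all 5 arrays (51.7%), beside 42.7% of all genes. In 6 of the 15 every mimic array was above every scramble array (25.5% over all genes), and in 9 every mimic array was below (17.2% over all genes). The 2 scramble arrays were far apart for many sterol genes, though by the median less so than over all genes. In 17 of 30 the gap between them exceeded the fitted difference between the groups, and 21 of 30 kept one sign against each scramble array taken alone. The same counts were not taken over all genes. The median gap between the scramble arrays was 0.31 log2 units over the sterol genes and 0.38 over all genes. The 95% limits of 17 of the 30 genes (56.7%) lay wholly inside a 2-fold change, beside 62% of all genes. For the other 13 a 2-fold difference lay within the limits.

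**Figure D1:**
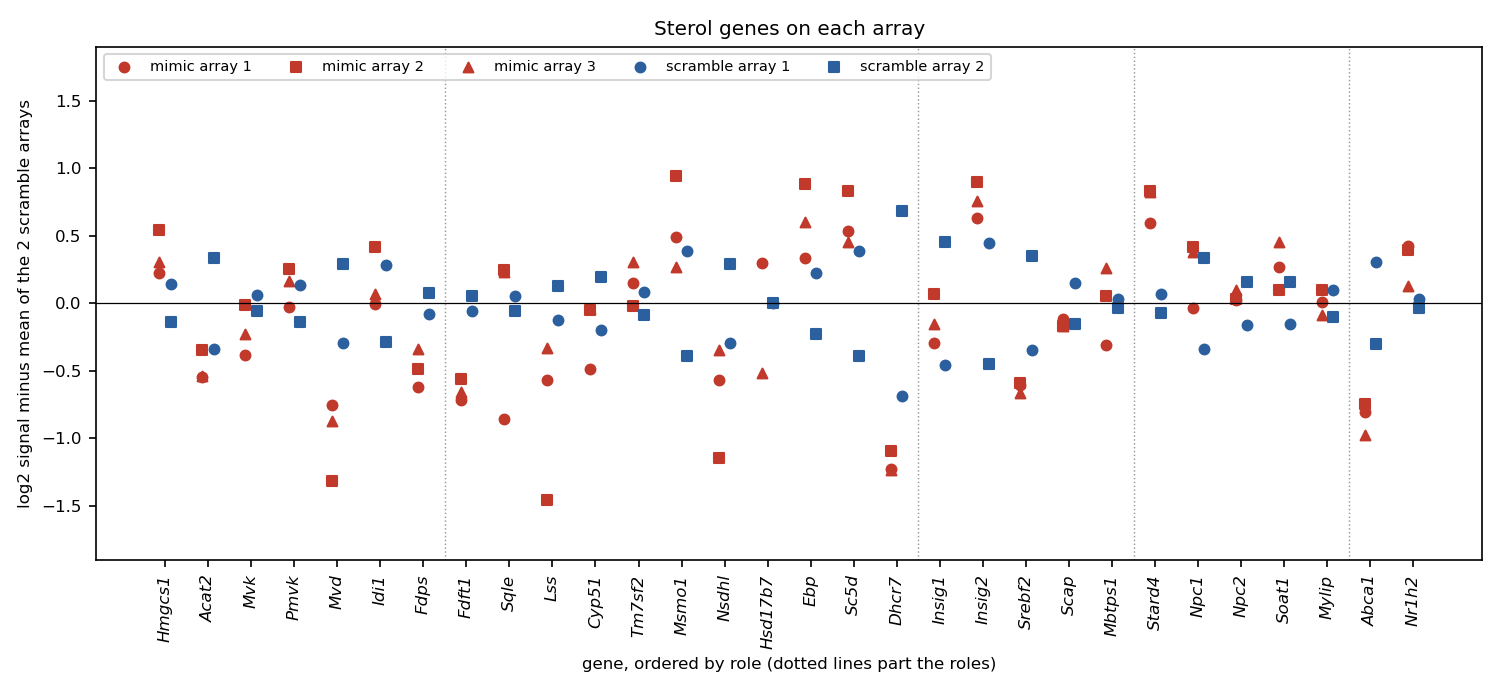
Normalised log2 signal of each sterol gene on each of the 5 arrays, minus the mean of the 2 scramble arrays, with genes in order of role along the x axis and dotted lines between roles. Red symbols are the 3 mimic arrays and blue symbols the 2 scramble arrays. All red symbols lie below the blue ones for 9 genes, among them Fdft1, Mvd and Dhcr7, and all above for 6, among them Stard4 and Insig2. Some of these gaps are narrow, as for Acat2, with signals of 0.78 on mimic array 2 and 0.79 on scramble array 1.

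The 7 enzymes from acetyl-CoA to farnesyl diphosphate had a median log2 difference of −0.21, with 4 below 0 and 3 above. Both with an unadjusted p below 0.05, Mvd and Fdps, were lower on every mimic array. Mvd makes isopentenyl diphosphate by decarboxylation. Its normalised log2 signal was −0.54, −1.10 and −0.66 on mimic arrays 1 to 3 and −0.08 and 0.51 on the scramble arrays. All mimic arrays were below both scramble arrays, and mimic array 2 was lowest. The means were −0.77 ± 0.30 (SD, n = 3) and 0.21 ± 0.42 (SD, n = 2), a log2 difference of −0.98 with a standard error of 0.26, or 1.97-fold lower, with an adjusted p of 0.0583 in limma. The signal was near background, with 4 of the 6 mimic scans well above it and 4 of 4 scramble scans. The first day's scans gave −0.94 and those of the second −1.02, and without scramble array 1 it was −1.27, with an adjusted p of 0.018. Without scramble array 2 it was −0.68 with 0.212, and the normexp background correction gave −0.55 with 0.106. Mvd had 1 probe, printed because its value rests on this stretch alone, placed by the file on mm9 at chr8:124957750-124957809, minus strand.
Mvd probe: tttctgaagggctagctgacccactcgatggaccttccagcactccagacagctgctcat

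Fdps, which joins isopentenyl units into farnesyl diphosphate, stood at 3.29, 3.42 and 3.57 on the mimic arrays and 3.83 and 3.99 on the scramble arrays. The groups did not overlap and each was tight. The difference was −0.48 with a standard error of 0.20, 1.40-fold lower, and its adjusted p was 0.175. Its 95% limits, −0.94 to −0.03, excluded a 2-fold change in either direction. Acat2, the cytosolic thiolase at the start of the pathway, stood at 0.59, 0.78 and 0.59 on the mimic and 0.79 and 1.47 on the scramble arrays. Mimic array 2 and scramble array 1 were nearly level and scramble array 2 was high, so that the difference of −0.48 (standard error 0.24, adjusted p 0.268) became −0.81, with an adjusted p of 0.0296, without scramble array 1 and −0.14 without scramble array 2.

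Hmgcs1, the cytosolic HMG-CoA synthase, was the one mevalonate enzyme above the scramble arrays on every mimic array. Its signal was 3.54, 3.86 and 3.63 on mimic and 3.46 and 3.18 on scramble arrays, a difference of 0.36 with a standard error of 0.21 and an adjusted p of 0.324, and 0.22 without scramble array 2. The rest overlapped between groups. Mvk and Pmvk, the kinases that act in turn on mevalonate, had log2 differences of −0.21 ± 0.20 and 0.13 ± 0.20 (fitted value and standard error), and Idi1, the isopentenyl diphosphate isomerase, of 0.16 ± 0.25. The limits of these 3 genes lay inside a 2-fold change. A dimmer Pmvk probe, also well above background on all scans, had a difference of the other sign, −0.12, with the groups overlapping.

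Mvk was read by a pair of probes from neighbouring stretches, shown because their values differ.
Mvk brighter probe: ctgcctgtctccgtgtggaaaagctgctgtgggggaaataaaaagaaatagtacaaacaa
Mvk dimmer probe: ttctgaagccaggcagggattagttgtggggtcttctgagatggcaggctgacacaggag
The brighter lies on mm9 at chr5:114910540-114910599 and the dimmer at chr5:114910299-114910358, both on the plus strand. On the brighter probe the mimic arrays stood at 1.88, 2.25 and 2.04 and the scramble arrays at 2.32 and 2.20. On the dimmer probe they stood at −0.58, −1.29 and −0.37 against −0.21 and 0.35, a difference of −0.82 with an adjusted p of 0.157 when each probe was fitted on its own. The dimmer probe did not overlap between the groups and the brighter one did.

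The 11 enzymes from squalene synthase to the end of the pathway had the widest spread of differences, from −1.19 to 0.61, with 7 below 0, 4 above and a median of −0.12. Fdft1, squalene synthase, commits farnesyl diphosphate to sterols. Its signal was 2.29, 2.44 and 2.35 on the mimic arrays and 2.95 and 3.06 on the scramble arrays. The groups did not overlap, and the arrays of each lay within 0.16 log2 units of one another. The means were 2.36 ± 0.08 (SD, n = 3) and 3.00 ± 0.08 (SD, n = 2), a difference of −0.64 with a standard error of 0.19, 1.56-fold lower, with 95% limits of −1.08 to −0.21 and an adjusted p of 0.0733 in limma. By day of scanning it was −0.57 (first) and −0.72 (second). Scaling to the 75th percentile of probes well above background on all scans gave −0.78 with an adjusted p of 0.0395, the normexp background correction −0.65 with 0.038, and leaving out scramble array 1 −0.70 with 0.0407. Leaving out scramble array 2 gave −0.59 with 0.149, and scaling to the median of each scan −0.58 with 0.621.

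The Fdft1 probes are printed because one of them carried the whole signal. The first, on mm9 at chr14:63765750-63769990, spans more of the genome than its 60 bases and was well above background on all 10 scans. The second, at chr14:63764562-63764621, was well above background on none and was not used. Both are on the minus strand.
Fdft1 probe 1: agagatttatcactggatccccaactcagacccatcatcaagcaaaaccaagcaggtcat
Fdft1 probe 2: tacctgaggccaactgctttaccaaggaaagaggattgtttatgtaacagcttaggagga

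Dhcr7, which makes cholesterol from 7-dehydrocholesterol as the last step of one branch, had the largest difference of any sterol gene. The mimic arrays stood at −0.94, −0.80 and −0.94 and the scramble arrays at −0.39 and 0.98. The mimic arrays were close together and below both scramble arrays, but the scramble arrays lay 1.36 log2 units apart. The difference was −1.19 with a standard error of 0.36, 2.28-fold lower, with 95% limits of −2.03 to −0.34 and an adjusted p of 0.0869. It was −1.87 with an adjusted p of 0.00202 without scramble array 1, and −0.50 with 0.206 without scramble array 2. The normexp background correction gave −0.66 with 0.187. Its single probe, on mm9 at chr7:151033874-151033933, plus strand, is printed for the same reason as that of Mvd.
Dhcr7 probe: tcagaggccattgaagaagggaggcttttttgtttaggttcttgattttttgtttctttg

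Lss, which closes squalene epoxide to lanosterol, stood at −1.41, −2.29 and −1.17 on the mimic arrays and −0.96 and −0.71 on the scramble arrays. All mimic arrays were below, but only 3 of 6 mimic scans and 3 of 4 scramble scans were well above background. The difference was −0.79 with a standard error of 0.33 and an adjusted p of 0.190, −0.45 without mimic array 2 and −0.32 with normexp. Nsdhl, which removes a methyl group of lanosterol-derived sterols, stood at −0.39, −0.96 and −0.17 on the mimic and −0.12 and 0.47 on the scramble arrays. Mimic array 3 and scramble array 1 were almost level, and the difference was −0.69 with a standard error of 0.30 and an adjusted p of 0.197. It was −0.98 without scramble array 1, −0.39 without scramble array 2, −0.46 without mimic array 2 and −0.39 with normexp.

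Ebp and Sc5d, which move and add double bonds in the sterol rings just before Dhcr7 acts, differed in the other direction from it. Ebp, the sterol isomerase, stood at 3.57, 4.12 and 3.84 on the mimic and 3.46 and 3.01 on the scramble arrays. The groups did not overlap, with mimic array 1 close to scramble array 1, and the difference was 0.61 with a standard error of 0.24, 1.52-fold higher, with an adjusted p of 0.172, and 0.38 without scramble array 2. Sc5d, the sterol desaturase, stood at 1.11, 1.40 and 1.03 against 0.96 and 0.18. Its scramble array 1 was just below the mimic arrays and scramble array 2 well below, and the difference was 0.61 with a standard error of 0.27 and an adjusted p of 0.209. Without scramble array 1 it was 1.0 with an adjusted p of 0.0226, and without scramble array 2 it was 0.22. Msmo1, the sterol methyl oxidase, stood at 4.83, 5.28 and 4.61 against 4.72 and 3.94, overlapping, with a difference of 0.57 ± 0.30 (fitted value and standard error) and an adjusted p of 0.279. It was 0.96 without scramble array 1 and 0.18 without scramble array 2.

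The other 4 enzymes of the late steps had differences between −0.19 and 0.15 with limits inside a 2-fold change. Sqle, the squalene epoxidase, stood at 2.91, 4.02 and 4.00 on the mimic arrays and 3.83 and 3.72 on the scramble arrays. Mimic array 1 alone was low, and the difference of −0.12 became 0.24 without it. Cyp51, the lanosterol demethylase, had a difference of −0.19 ± 0.24 and Tm7sf2, a sterol reductase, of 0.15 ± 0.20 (fitted value and standard error). Hsd17b7, the ketoreductase of the demethylation steps, had no value for its brighter probe on mimic array 2, where the spot was marked as non-uniform on both scans. This probe stood at −0.45 and −1.27 on mimic arrays 1 and 3 and at −0.75 on both scramble arrays, a difference of −0.11 ± 0.31. A dimmer probe had a value on every array, −1.10, −0.74 and −1.25 on the mimic and −0.68 and −0.75 on the scramble arrays. Its groups overlapped, with a difference of −0.31 and an adjusted p of 0.420 when each probe was fitted on its own. Well above background were 2 of its 6 mimic and 3 of its 4 scramble scans. The marked spot of the brighter probe read 10.2 and 9.65 on the 2 scans. It was kept in the authors' deposited matrix, where the difference of this gene came to 3.1.

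**Figure D2:**
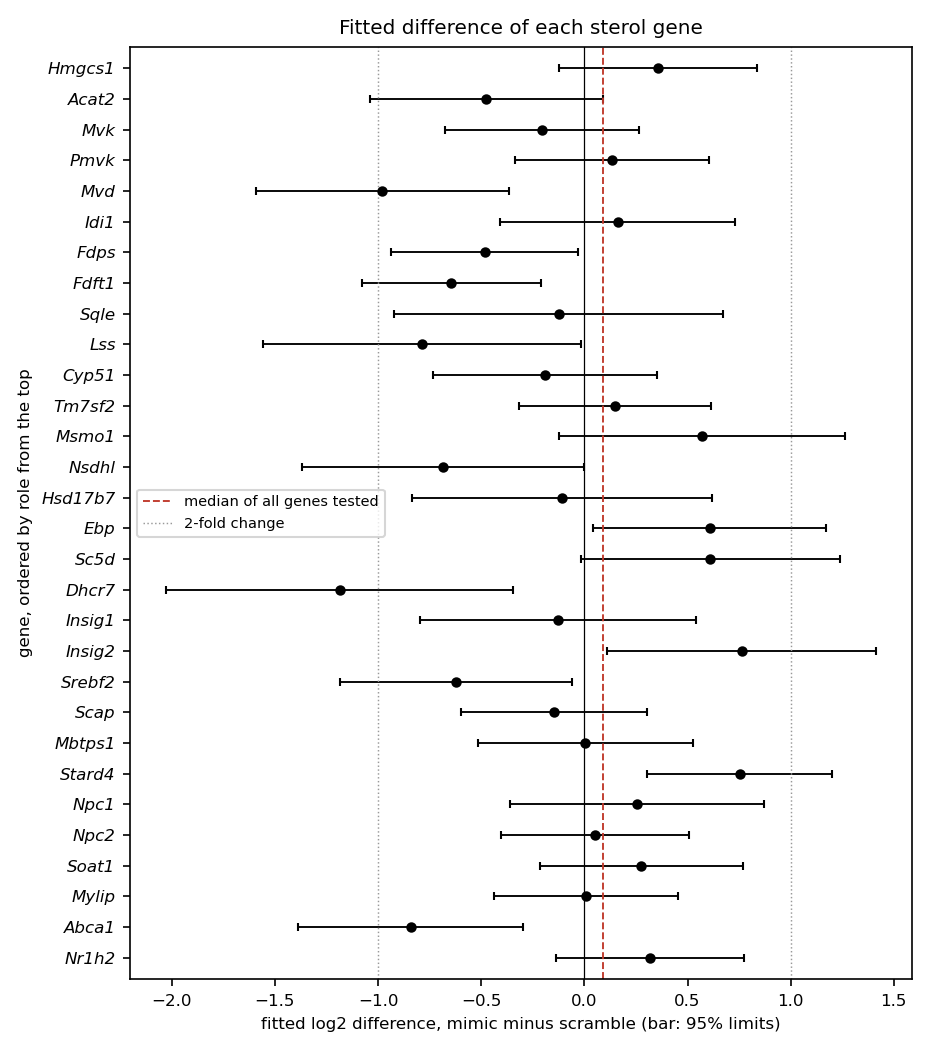
Fitted log2 difference of each sterol gene, mimic minus scramble, with 95% limits as bars and genes in order of role from the top. The red dashed line is the median of all genes tested, 0.09, and dotted lines mark a 2-fold change. The limits of 11 genes exclude 0 before adjustment, Mvd, Fdps, Fdft1, Lss, Nsdhl, Dhcr7, Srebf2 and Abca1 below and Ebp, Insig2 and Stard4 above.

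Among the 5 regulators of SREBP processing, Srebf2 and Insig2 had unadjusted p-values below 0.05, in opposite directions. Srebf2 encodes SREBP2. Its brighter probe stood at 1.54, 1.55 and 1.48 on the mimic arrays and 1.80 and 2.49 on the scramble arrays. The 3 mimic arrays lay within 0.07 of one another and below both scramble arrays. The difference was −0.62 with a standard error of 0.24, 1.54-fold lower, with an adjusted p of 0.164. It was −0.97 with an adjusted p of 0.0146 without scramble array 1 and −0.27 without scramble array 2. A dimmer probe stood at −1.84, −1.65 and −0.82 on the mimic and −2.64 and 0.01 on the scramble arrays, a difference of −0.12, with the groups overlapping and only 2 of 6 mimic and 2 of 4 scramble scans well above background.

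Insig2 encodes one of the 2 proteins that retain SCAP. Its brighter probe stood at 3.78, 4.06 and 3.91 on the mimic arrays and 3.60 and 2.70 on the scramble arrays. Every mimic array was higher, and scramble array 2 lay far below scramble array 1. The difference was 0.76 with a standard error of 0.28, 1.70-fold higher, with 95% limits of 0.11 to 1.42 and an adjusted p of 0.143. Without scramble array 1 it was 1.21 with an adjusted p of 0.0102, and without scramble array 2 it was 0.31. The dimmer probe gave a like value from a second stretch of the message. It stood at 1.89, 1.75 and 2.10 against 1.35 and 0.88, a difference of 0.80 with an adjusted p of 0.072 when each probe was fitted on its own. These probes are printed as the one pair among the sterol genes in which both probes were well above background on all scans and differed in the same direction without overlap between the groups. They lie on mm9 at chr1:123201085-123201144 and chr1:123202133-123202192, minus strand.
Insig2 brighter probe: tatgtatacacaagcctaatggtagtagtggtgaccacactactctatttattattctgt
Insig2 dimmer probe: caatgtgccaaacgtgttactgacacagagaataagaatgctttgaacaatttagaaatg

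Insig1, the other INSIG gene and itself an SREBP target, stood at −0.19, 0.18 and −0.05 on the mimic arrays, all between the scramble arrays at −0.34 and 0.56. Its difference of −0.13 with a standard error of 0.29 was 0.32 without scramble array 2 and −0.58 without scramble array 1. Scap, the SREBP escort, stood at 2.59, 2.53 and 2.53 against 2.85 and 2.55, a difference of −0.15 ± 0.20 (fitted value and standard error). The mimic arrays were close together and scramble array 2 was level with them. Mbtps1, which encodes the first of the Golgi proteases that cut SREBP, had a difference of 0.00 with a standard error of 0.23 on its brighter probe and −0.55, with an adjusted p of 0.226, on its dimmer one. Both Mbtps1 probes overlapped between the groups.

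**Figure D3:**
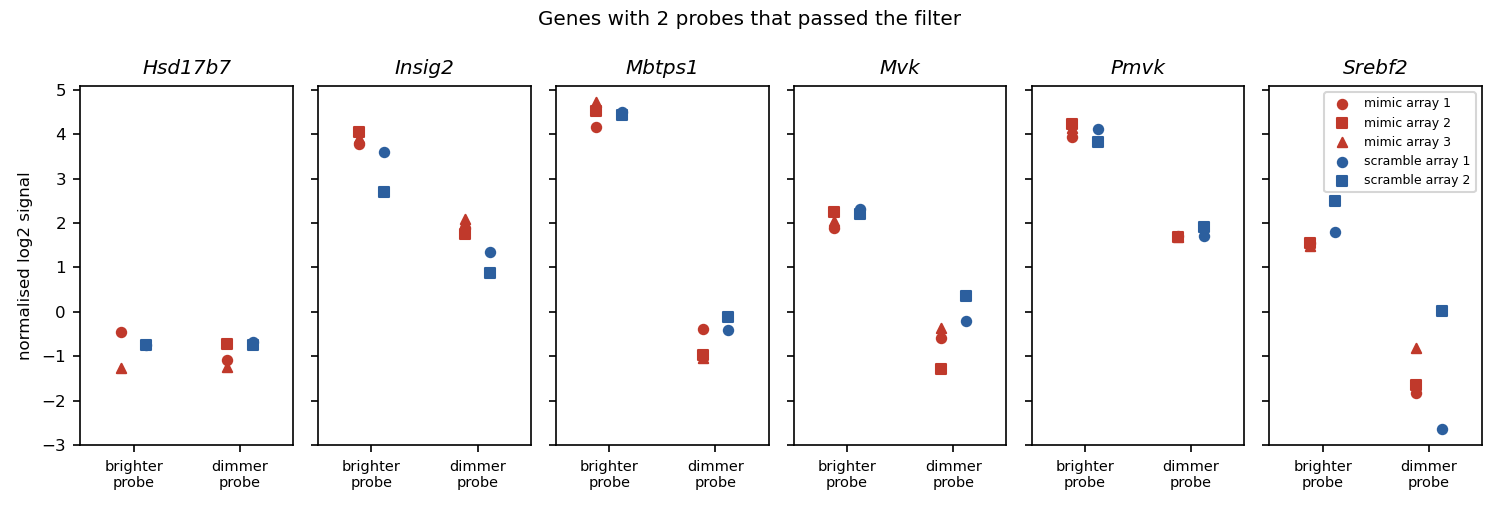
Normalised log2 signal of the 6 sterol genes with 2 probes past the filter on dim probes, for the brighter and the dimmer probe of each on the same 5 arrays. Red is mimic, blue is scramble, and the symbol shape gives the array. Both Insig2 probes have every mimic array above the scramble arrays, with differences of 0.76 and 0.80, while the 2 Mvk probes differ by −0.21 and −0.82 and the 2 Mbtps1 probes by 0.00 and −0.55.

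All 5 genes of uptake, transfer and storage had a difference above 0, with a median of 0.25, but 2 of the 5 fell below 0 when scans were scaled to the probes well above background throughout. Stard4, a cytosolic carrier that moves cholesterol between membranes, had the smallest p-value of the sterol genes. Its signal was 0.48, 0.71 and 0.71 on the mimic arrays and −0.05 and −0.19 on the scramble arrays. The groups were well apart and each was tight after averaging, though the 2 scans of mimic array 1 read 0.76 and 0.19. The means were 0.63 ± 0.13 (SD, n = 3) and −0.12 ± 0.10 (SD, n = 2), a difference of 0.75 with a standard error of 0.19, 1.68-fold higher, with 95% limits of 0.30 to 1.20 and an adjusted p of 0.0515 in limma. The first day's scans alone gave 0.86 with an adjusted p of 0.0292, and those of the second 0.65. It was 0.82 without scramble array 1, with an adjusted p of 0.0307, and 0.68 without scramble array 2, with 0.12, and normexp gave 0.49 with 0.114. A second Stard4 probe was not well above background.

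Npc1 and Npc2 hand cholesterol out of the lysosome. Npc1 stood at −0.22, 0.23 and 0.20 on the mimic and −0.52 and 0.15 on the scramble arrays, overlapping, with a difference of 0.25 ± 0.27, and Npc2 had a difference of 0.05 ± 0.20 (fitted value and standard error). Without scramble array 1 both turned below 0, to −0.08 and −0.11, and without scramble array 2 they were 0.59 and 0.21. Soat1, which esterifies cholesterol for storage, stood at 0.26, 0.08 and 0.44 against −0.17 and 0.14. Only mimic array 2 lay between its scramble arrays, and the difference was 0.28 with a standard error of 0.21 and an adjusted p of 0.458. Mylip, the ubiquitin ligase that sends lipoprotein receptors for degradation and an LXR target, stood at 1.77, 1.85 and 1.67 against 1.85 and 1.65. Its difference was 0.01 with a standard error of 0.19, and 95% limits of −0.44 to 0.45 placed it inside a 2-fold change.

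Of the 3 genes of LXR signalling and export, Abca1 and Nr1h2 could be tested. Abca1 exports cholesterol to apolipoproteins. Its signal was −0.92, −0.87 and −1.09 on the mimic arrays and 0.19 and −0.42 on the scramble arrays. The mimic arrays were close together and below both scramble arrays. The difference was −0.84 with a standard error of 0.24, 1.79-fold lower, with 95% limits of −1.39 to −0.30 and an adjusted p of 0.0651. Well above background were 4 of 6 mimic and 3 of 4 scramble scans. Scans of the first day gave −0.77 and of the second −0.91. Without scramble array 2 it was −1.15 with an adjusted p of 0.0227, and without scramble array 1 it was −0.54 with 0.0957. Scaling to the probes well above background on all scans gave −0.97 with an adjusted p of 0.0301, and normexp −0.49 with 0.104. Its single probe lies on mm9 at chr4:53043944-53044003, minus strand, and is printed as the only reading of sterol export among these genes.
Abca1 probe: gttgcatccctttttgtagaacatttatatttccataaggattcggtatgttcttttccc

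Nr1h2 encodes LXR beta. It stood at 5.13, 5.10 and 4.83 on the mimic arrays and 4.74 and 4.67 on the scramble arrays. Every mimic array was higher, by a difference of 0.32 with a standard error of 0.20, an adjusted p of 0.357 and 95% limits of −0.14 to 0.77. Nr1h3 encodes LXR alpha, and neither of its probes was well above background on any scan. The brighter read −2.37, −2.14 and −2.54 on the mimic arrays and −1.48 and −1.53 on the scramble arrays, which did not overlap, and the dimmer −2.95, −2.80 and −3.49 against −2.81 and −3.25, which did. Without the filter on dim probes the difference of the brighter probe was −0.85, with an unadjusted p of 0.0199 and an adjusted p of 0.388. In the authors' deposited matrix it was −0.93 with an adjusted p of 0.0244. No fold is given because both groups were at background level.

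**Figure D4:**
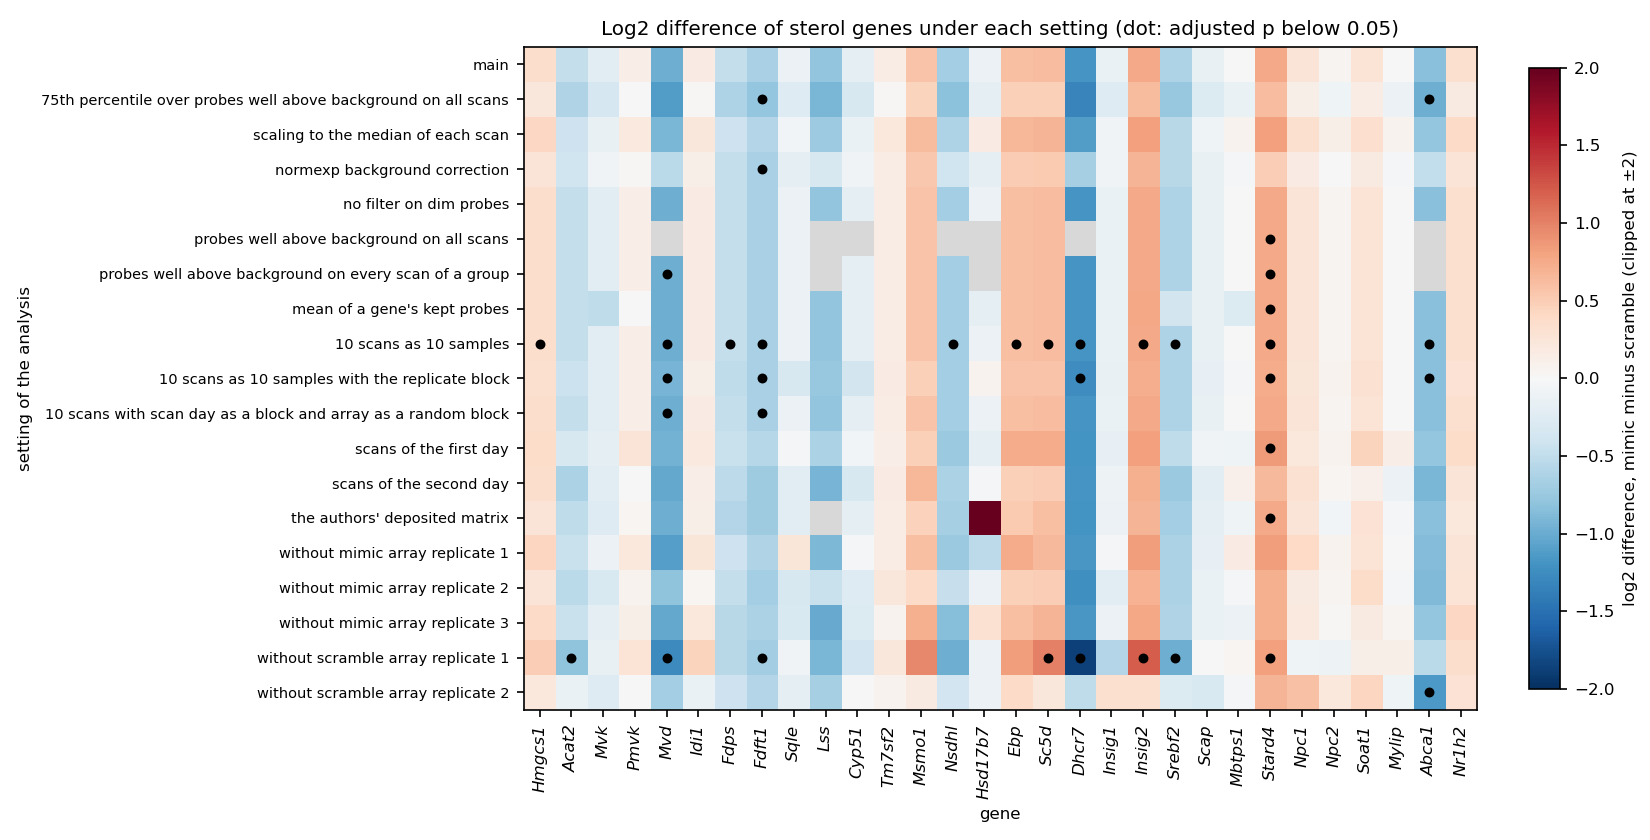
Log2 difference, mimic minus scramble, of each sterol gene (columns, in order of role) under the analysis used in the text (top line of cells) and 18 alternatives. Red is higher and blue lower with mimic, grey means no value, and a dot marks an adjusted p below 0.05. Stard4 has a dot under 8 alternatives and Fdft1 under 6, and leaving out scramble array 1 gives a dot to 8 genes, where 27.4% of all genes are called.

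Calls depended on how the arrays were treated. Under the 18 alternatives that fit 1 value per gene, 13 of the 30 genes passed an adjusted p of 0.05 at least once and 17 never did. Of the 13, Ebp, Fdps, Hmgcs1 and Nsdhl passed only where the 10 scans were taken as 10 samples. The share of all genes that passed at least once was not computed, so the 13 cannot be set against a background. Stard4 passed under 8 and Fdft1 under 6, each with its sign kept in all 18. A kept sign does not set them apart, since Mvk, Tm7sf2 and Soat1 kept theirs in all 18 and never passed. Mvd passed in 5 of 17, Abca1 in 4 of 16 and Dhcr7 in 3 of 17, also with their signs kept. These counts, and those of Stard4 and Fdft1, include the fits of 10 scans as 10 samples with and without the replicate block. Mvd also passed with probes well above background on every scan of a group. It met that filter only through the scramble group, where it was brighter, so this pass is no separate support. Without scramble array 1, 8 of the 30 genes passed (26.7%), beside 27.4% of all genes, a share near the background. Of these, Mvd, Dhcr7, Srebf2, Acat2 and Fdft1 were lower and Insig2, Sc5d and Stard4 higher. Without scramble array 2 Abca1 alone passed, beside 6.9% of all genes. Treating the 10 scans as 10 samples called 12 genes (40%), beside 30.8% of all genes, but scans of 1 array share their RNA. Leaving out scramble array 2 also turned the sign of small differences, to 0.32 for Insig1, −0.13 for Idi1 and −0.09 for Mylip, and to within 0.05 of 0 for Pmvk, Cyp51 and Mbtps1.

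Promoters of the sterol genes were read from RefSeq's windows of 300 bases, 250 before to 50 after the start, on GRCm38.p6. These covered 26 of the 31 genes with 33 windows. The sterol regulatory element searched was TCACNCCAC on either strand, which 1.24% of all 32851 windows hold. One of the 33 windows (3.03%) held it, that of Hmgcs1, at position −137 from the start. Only exact matches were searched, so windows with a near match count as having none. The box CCAAT, bound by NF-Y, which binds beside SREBP at many of its targets, occurred on either strand in 20 of the 33 windows (60.6%), beside 37.4% of all windows. The Hmgcs1 window, chr13:119690101-119690400, plus strand, is printed with the element in capitals as the one match among the sterol genes. A match of letters is a description and not a measured binding site.
Hmgcs1 promoter: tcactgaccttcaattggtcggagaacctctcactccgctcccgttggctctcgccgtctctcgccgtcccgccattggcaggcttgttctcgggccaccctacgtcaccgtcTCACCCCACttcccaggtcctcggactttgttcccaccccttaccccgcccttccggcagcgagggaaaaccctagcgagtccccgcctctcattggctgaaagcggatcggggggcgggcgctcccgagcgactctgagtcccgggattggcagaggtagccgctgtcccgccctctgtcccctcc

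Beyond the 31 genes, 69 further genes of sterol and fatty acid metabolism were read in 5 lists, of which 56 could be measured, 2 were higher with the mimic and 1 lower. These 3 calls are 5.36% of the 56, below the 9.35% of all genes. Nceh1, a cholesteryl ester hydrolase, was the 1 higher gene of 14 measured on the uptake, lysosome and transfer list (median log2 difference 0.11). Its signal was 2.25, 2.64 and 2.68 on the mimic and 1.81 and 1.42 on the scramble arrays, with all mimic arrays higher. The difference was 0.91 with a standard error of 0.23, 1.88-fold, with an adjusted p of 0.0483. Next in order of p on that list came Cav1, the coat protein of caveolae, with a difference of 0.79 (adjusted p 0.0777), the lipoprotein receptor Vldlr with 0.87 and the lysosomal lipase Lipa with 0.70 (adjusted p 0.081 each).

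Srebf1, which encodes the sister factor SREBP1, was the 1 lower gene of 10 measured on the SREBP regulation list (median 0.06). It stood at −1.80, −0.79 and −1.04 on the mimic and −0.03 and 0.04 on the scramble arrays, all mimic arrays lower. The difference was −1.22 with a standard error of 0.30, 2.33-fold, with an adjusted p of 0.0452 and 4 of 6 mimic scans well above background. Sec24d, a coat protein of vesicles that leave the endoplasmic reticulum, had a difference of 0.83 with an adjusted p of 0.0507. None of 12 fatty acid targets of SREBP1 passed (median −0.19), and 7 had differences below 0 and 5 above. First in order of p were the desaturase Scd1 with −0.59 (adjusted p 0.151), Acsl3 with −0.59 (0.153) and Elovl5 with 0.58 (0.164).

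Nus1, a subunit of the enzyme that makes dolichol precursors, was the 1 higher gene of 12 measured on the isoprenoid and late synthesis list (median 0.29), with a difference of 0.97, a standard error of 0.20 and an adjusted p of 0.0246. Of 8 measured LXR and export genes none passed (median 0.20), and 5 had differences above 0 and 3 below. Lpcat3, a phospholipid-remodelling LXR target, had a difference of −0.81 with an adjusted p of 0.0541. Next in order of p came Arl4c with 0.63 (adjusted p 0.200) and Rxrb with 0.47 (0.280). The calls of Nceh1, Srebf1 and Nus1 were near the threshold. All 3 were lost without mimic array 1, without mimic array 3 or without scramble array 2, at adjusted p of 0.0718 to 0.178, with signs kept and differences of 0.71 to 1.05 for Nceh1, −0.92 to −1.30 for Srebf1 and 0.82 to 1.02 for Nus1. Without mimic array 2 the calls of Nceh1 (0.85, adjusted p 0.154) and Nus1 (0.89, adjusted p 0.103) were lost, and without scramble array 1 that of Srebf1 (−1.25, adjusted p 0.0544). Scaling to the median, dropping the filter on dim probes and the second day's scans alone also ended all 3 calls, at adjusted p of 0.0779 to 0.376. Normexp ended that of Nceh1 (0.80, adjusted p 0.054) and of Srebf1, whose difference shrank to −0.55 (adjusted p 0.0841). The call of Srebf1 was also lost with the array as a random block (adjusted p 0.0744) and in the authors' deposited matrix (adjusted p 0.0655).

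**Figure D5:**
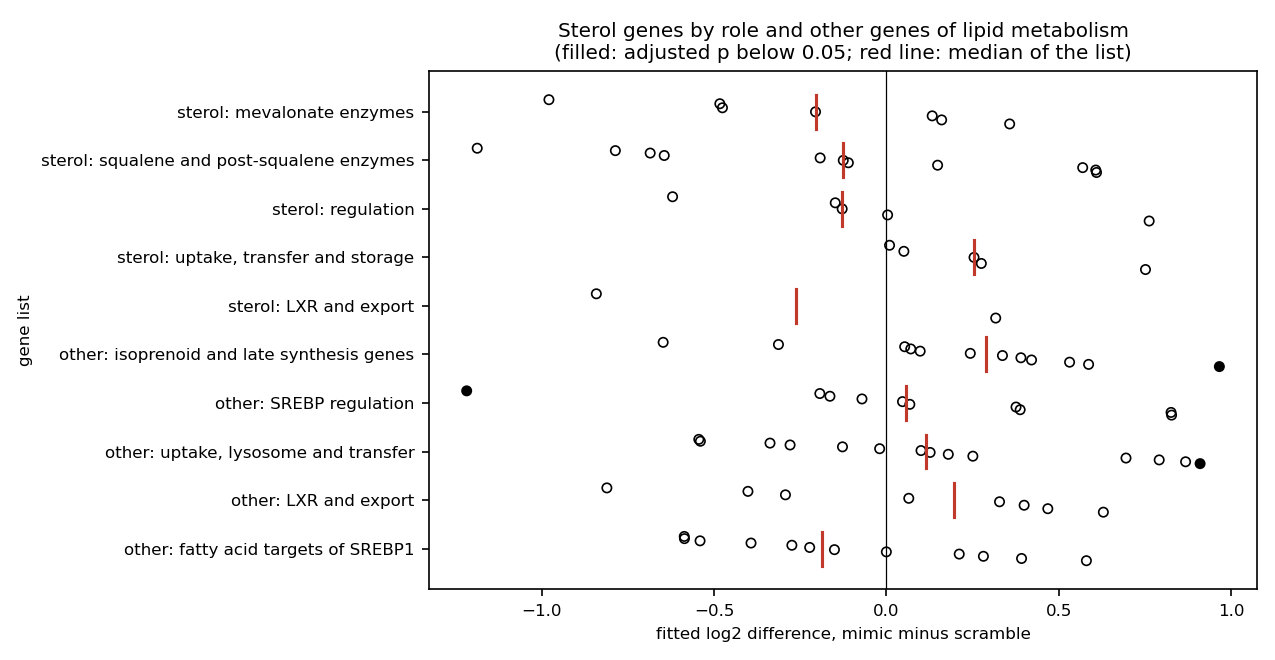
Fitted log2 difference, mimic minus scramble, of each measured sterol gene by role (upper 5 lines) and of the other lipid genes by list (lower 5 lines). Each circle is a gene, filled where the adjusted p was below 0.05, and the red bar is the median of the line. The filled circles are Nus1 at 0.97, Srebf1 at −1.22 and Nceh1 at 0.91, and no circle of the upper 5 lines is filled.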

How the data were processed

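The deposited scanner files give a linear intensity per spot. Per the file headers they come from Feature Extraction 12.0.0.7, and the submitters' processing notes have 10.7.3.1. RNA (150 ng) was labelled with Cy3 and hybridised to 1-colour arrays of 62976 spots with mm9 coordinates. The deposited matrix of the authors also holds intensities, of which log2 was taken, and how they were normalised is not stated by any label or header. The processed signal, already background-corrected, was put on the log2 scale and the 75th percentile of its non-control probes was subtracted in each scan of these deposited values. Outlier spots were left out. Probes well above background on at least 4 of 10 scans were kept (17455), and the probe with the highest mean stood for its gene. Gene names were updated through RefSeq tables by accession for 28026 probes, by symbol for 3418 and by synonym for 295, and 23942 kept the name in the file.

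Scans of an array position were averaged and mimic was compared with scramble by limma 3.58.1 in R 4.3.3 (lmFit, eBayes) over all 13677 genes with Benjamini-Hochberg adjustment, 3 residual degrees of freedom and a threshold of 0.05. The code was tested on simulated data. All sterol genes are accounted for, and values of every array are given for at least the 12 with the smallest p-values. From the other lists, genes past the threshold are named and otherwise up to 4 in order of p. The sterol genes and lists were chosen with earlier results of these data known. Log2 signals of 2 scans of 1 array had r of 0.990 to 0.993, and the highest r between arrays was 0.992. Exon or UTR positions of probes were not annotated, and the number of arrays limits the precision. Alternatives covered scaling, background, filter, probe choice, replicates, scan day and the deposited matrix.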

Additional observations from a re-analysis of the deposited data

How the results depend on the processing

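Over all genes 1279 were called. The count was 803 with scaling to the median of each scan, 423 with no filter, 4209 with 10 scans as 10 samples, 2298 with the replicate block added, and between 530 and 3742 with 1 array left out. The sterol genes called, 0 in the analysis above, numbered as follows, with the share of all genes called in parentheses: 2 with scaling to probes well above background on all scans (9.78%), 1 with normexp (8.11%), 1 with probes well above background on all scans (9.24%), 2 with probes well above background on every scan of a group (12.3%), 1 with probes of a gene averaged (10.1%), 12 with 10 scans as samples (30.8%), 5 with the replicate block (16.8%), 2 with the array as a random block beside a scan day block (12.9%), 1 on the first scan day (9.40%), 2 in the deposited matrix (8.35%), and 0 to 8 with 1 array left out (8 without scramble array 1, 1 without scramble array 2, 0 without any mimic array). Sterol genes called were 0 with scaling to the median of each scan (5.87% of all genes) and with no filter (1.22%). They were also 0 on the second scan day (6.75%) and with every kept probe as its own row (9.13%). Without mimic array 1, 2 or 3 the share of all genes called was 3.88%, 4.72% or 4.20%. Mvd, called with probes well above background on every scan of a group, met that filter only through the scramble group. The median log2 difference of the sterol genes, −0.05, was −0.16 with scaling to probes well above background throughout, −0.13 with probes of a gene averaged, 0.069 with the median scaling, 0.13 with probes well above background on all scans, which drops 7 dim genes, 0.0093 with those of every scan of a group, and −0.077 to 0.037 with 1 array left out. The cause of the other changes was not tested. Scaling to probes well above background on all scans moved the median of all genes by −0.13. Labels number the scans alike in both groups, but deviations of same-numbered scans correlated only at −0.28 to 0.19 and no scramble scan correlated best with its own number, so the numbers were not taken to pair the samples. Lone arrays left in a group were assumed to vary like the other group. Dim probes limit Mvd, Abca1, Dhcr7, Lss, Nsdhl, Cyp51 and Hsd17b7. Groups of 2 and 3 arrays are too small for an outlier test.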
